A study of Bos taurus with 2 samples.

Results

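The ERBB receptors and their EGF-family ligands were followed in RNA from 2 fractions of bovine whey, the part of milk that stays fluid once fat and casein have been removed. The names looked for were the receptors EGFR, ERBB2, ERBB3 and ERBB4 and the ligands AREG, EREG, HBEGF, BTC, TGFA and EGF. The gene name column of the arrays held 12 probes of 6 of these 10 genes, out of 43652 probes. The accessions and LOC numbers listed with the probes, read against a reference gene table, added 4 probes of 3 genes, ERBB2, AREG and TGFA, which gave 16 probes of 9 genes out of 17651 named genes. No probe was matched to ERBB4, which was not analysed here.

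By the labels, the exosome group, called the pellet here, was the sediment of whey spun at 10000 g for 90 min. That sediment was taken up in PBS and spun again in 2 washes, and the supernatant group was the fluid above it. Both came from raw milk of Holstein cows, and RNA of 3 milk samples was mixed in equal parts before 100 ng was labelled with Cy3, so each array holds a pool. Exosomes are small membrane vesicles that cells release, and are usually spun down at a higher speed than the 10000 g that the labels state. The title of the supernatant sample names ultracentrifugation, so whether the speed was recorded correctly could not be settled. What each fraction holds is therefore uncertain. There was 1 array per fraction, so no difference below has a replicate check or a test, and precision is limited by that number of arrays. The signal is the scanner software's background-subtracted brightness of a spot, not scaled between arrays, and each ± below is the software's own error for a single spot.

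ERBB receptors are tyrosine kinases of the cell surface that pair up when a ligand binds and pass the signal on through the RAS-MAPK and PI3K-AKT routes. ERBB2 has no known ligand and ERBB3 has a weak kinase, so these receptors act mainly as partners, and the pair of ERBB2 with ERBB3 is a strong activator of PI3K. The ligands are made as membrane proteins and are cut free by ADAM proteases, and in the mouse mammary gland they take part in duct growth and in the changes of pregnancy and lactation.

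The probes that carry the results are shown 5′ to 3′, with runs of 3 or more G in capitals, because the ERBB3 probes disagreed with each other and the ERBB2 probe has a long G run. Positions count bases from the start of the probe's transcript, and coordinates are those of the array files in build HGSC Btau_3.1. Of probes far along their transcript 30 bases are shown, and of the others all 60. Whether a probe lies in a coding exon or an untranslated region was not analysed here.
ERBB3 at position 1436, chr5:61789918-61789977, minus strand: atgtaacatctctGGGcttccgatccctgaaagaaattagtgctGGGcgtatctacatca
ERBB3 at position 3665, chr5:61782481-61782540, minus strand: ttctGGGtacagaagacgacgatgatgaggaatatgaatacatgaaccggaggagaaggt
ERBB3 at position 5322, chr5:61780824-61780883, minus strand, bases 10 to 39: acctctgtccctttggatGGGaaactGGGG
BTC at position 469, chr6:92789820-92791884, minus strand: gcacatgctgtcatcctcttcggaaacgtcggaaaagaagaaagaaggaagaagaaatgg
BTC at position 2069, chr6:92786397-92786456, minus strand, bases 1 to 30: cttGGGaccatcttgccaatgctccttcaa
BTC at position 2973, chr6:92785493-92785552, minus strand, bases 1 to 30: ggcaattcaagcttggaaattatgttctga
ERBB2 at position 4237, chr19:41362828-41362887, plus strand, bases 1 to 30: tGGGattGGGGGaGGGatgtcctccacact

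The BTC probe at position 469 covers 2065 bases of the genome with its 60 bases, so its sequence is interrupted there. All 3 ERBB3 probes were designed on the same RefSeq transcript, as were all 3 BTC probes.

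The first question was which members could be measured in each fraction. Detection of a probe was the software's call that its spot was well above background, and 1 such probe was enough for its gene. With the reference names, 3 of the 9 genes were detected in the pellet, ERBB2, ERBB3 and BTC, against 65.9% of all 17651 named genes. In the supernatant 1 of 9 was detected, ERBB3, against 21.8% of all named genes. ERBB2 and BTC, 2 of 9, were detected in the pellet alone, against 45.2% of named genes, ERBB3 in both fractions, against 20.7%, and no member in the supernatant alone, against 1.09%. By the arrays' own gene names alone the counts were 2 of 6 genes in the pellet and 1 of 6 in the supernatant. Counted by probe, 6 of 16 were detected in the pellet and 1 of 16 in the supernatant, against 58.5% and 13.1% of all probes. The other 6 genes, EGFR, AREG, EREG, HBEGF, TGFA and EGF, were not well above background on either array, as were 33% of all named genes.

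**Figure D1:**
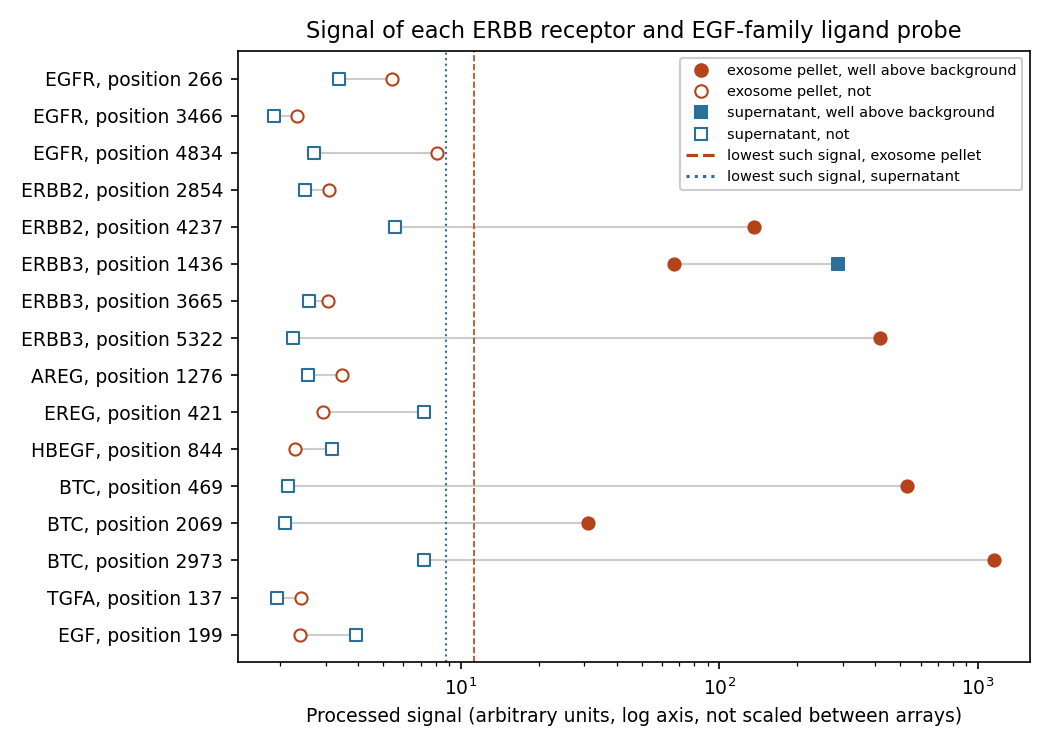
Signal of each of the 16 member probes on a log axis, with circles for the pellet and squares for the supernatant, filled where the probe was well above background. Of the filled points, 6 are exosome signals, and the single filled square, the ERBB3 probe at position 1436, stands right of its exosome circle.

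Among the receptors, ERBB3 was the member detected in both fractions, and its probes gave opposite directions. ERBB3 binds neuregulins and, paired with ERBB2, is the main docking site for PI3K in the family. At position 1436 the signal was 66.7 ± 7.07 in the pellet and 287 ± 28.8 in the supernatant. This probe was well above background on both arrays and 4.30-fold brighter in the supernatant before any scaling, a difference of -2.11 (log2, exosome minus supernatant). At position 5322 the signal was 416 ± 41.7 in the pellet and 2.25 in the supernatant, where it was not well above background. That probe was at least 47.5-fold brighter in the pellet before scaling. At position 3665 the signals were 3.06 and 2.59 in the pellet and supernatant, and neither was well above background. Along the same transcript, therefore, 1 probe was brighter in the supernatant, 1 was detected in neither fraction and 1 was detected in the pellet alone.

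The fold given after "at least" is the brighter signal over a floor. The floor is the smallest signal called well above background on the dimmer array, 11.3 for exosome and 8.75 for supernatant, or the dim probe's own signal where that is larger. Different probes have different brightness for the same amount of RNA, so signals of different probes are not ranked here.

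The direction seen at position 1436 was rare among all probes. Of the 5307 probes well above background on both arrays, 1.39% were at least 2-fold brighter in the supernatant before scaling and 80.2% at least 2-fold brighter in the pellet. The median probe stood at 3.38 (log2, exosome minus supernatant). The ERBB3 probe was 10th from the supernatant end, so that 0.188% of these probes had a difference as low or lower. After each array was scaled to its 75th percentile, which moves every difference by 5.56 toward the supernatant, its difference was -7.67, and 63.7% of the probes were then at least 2-fold brighter in the supernatant. Set against the median gene, a comparison that no constant scaling moves, it stood at -5.50. Besides the software's error per spot, repeat spots give a technical error. Of the probes printed on 4 spots each, 9 had no outlier spot and every spot well above background on both arrays. Over their spots the SD of the difference was 0.18 (log2), so it holds for such probes only.

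**Figure D2:**
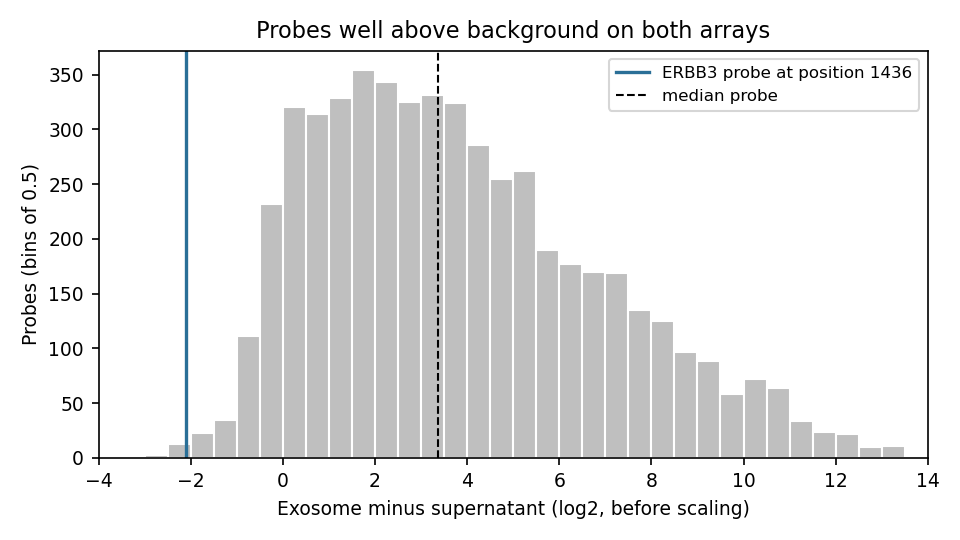
Histogram of the exosome minus supernatant difference (log2, before scaling) over the 5307 probes well above background on both arrays, in bins of 0.5. The solid line marks the ERBB3 probe at -2.11, in the left tail, and the dashed line the median probe at 3.38.

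A split of this kind between probes of a gene was uncommon before scaling. Of 4108 genes with 3 or more probes and detected in the pellet, 2.75% had a probe detected there alone and another brighter in the supernatant, as ERBB3 did. That share holds for unscaled signals and depends on the scale, and it was not counted after scaling. The sequence of the ERBB3 probe at position 1436, shown above, has GGG at 2 places and no run longer than that. Of 12291 probes whose longest run is 3, 11.95% were detected in the supernatant, and of 3515 probes with GGG at 2 places, 17.5% were. That last count set no limit on run length, so it takes in probes with longer runs than the ERBB3 probe has. The share was 12.03% of the 26125 probes with no GGG and 37.7% of the 1256 probes with a run of 5 or more. The part of the probe sequence in the ERBB3 signal was not tested.

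ERBB2, the receptor that serves as the shared partner of the others, was detected in the pellet alone. At position 4237 the signal was 136 ± 14.1 in the pellet and 5.57 ± 2.81 in the supernatant, at least 15.6-fold brighter in the pellet before scaling. At position 2854 the signals of 3.1 in the pellet and 2.49 in the supernatant were not well above background. The probe at position 4237 carries a run of 5 G within the bases shown. Of the 1256 probes with such a run or a longer one, 64.4% were detected in the pellet, against 58.5% of all probes. The array files name this probe only by a transcript record, and it was given to ERBB2 through the LOC number in its description.

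EGFR, the receptor for EGF, AREG and TGFA, was detected in neither fraction by any of its 3 probes. At positions 266, 3466 and 4834 its signals were 5.40, 2.33 and 8.07 in the pellet, against 3.37, 1.89 and 2.69 in the supernatant. All 6 values lay under the floor of their array. The probes at positions 266 and 4834 carried the software's weaker flag, for a signal that is positive and differs from background, on both arrays, and the probe at 3466 on neither. EGFR is therefore bounded here and not shown to be absent.

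**Figure D3:**
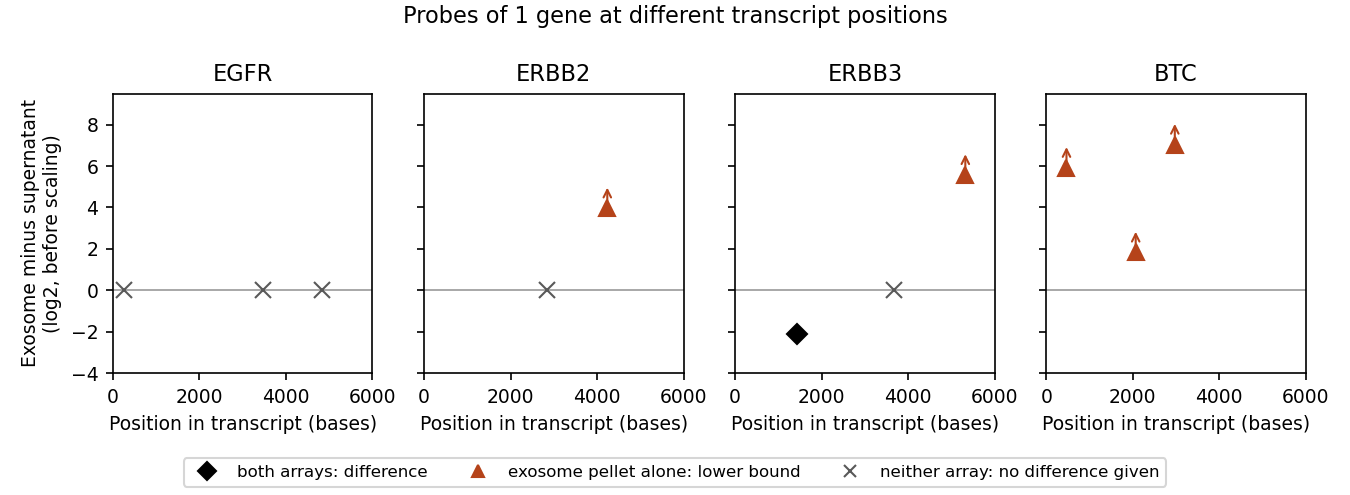
Exosome minus supernatant difference (log2, before scaling) of each EGFR, ERBB2, ERBB3 and BTC probe against its position in the transcript in bases. Diamonds are differences, triangles with arrows are lower bounds and crosses at 0 are probes that were not well above background on either array; ERBB3 has 1 of each, and all 3 BTC probes are bounds on the exosome side.

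Among the ligands, BTC was the only one detected. Betacellulin binds EGFR and ERBB4 and is named for its first source, beta cell tumours of the mouse. At position 469 its signal was 529 ± 53.0 in the pellet and 2.14 in the supernatant. At position 2069 it was 31.1 ± 4.02 in the pellet and 2.09 in the supernatant. At position 2973 it was 1149 ± 115 in the pellet and 7.19 ± 2.10 in the supernatant. All 3 probes were well above background in the pellet and none in the supernatant, so the 3 agreed in direction. Before scaling they were at least 60.4-fold, 3.55-fold and 131-fold brighter in the pellet. BTC was the one member with every probe detected in a fraction.

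The size of these bounds depended on how the arrays were put on a common scale. After 75th percentile scaling the BTC probes at positions 2973 and 469 were at least 2.78-fold and 1.28-fold higher in the pellet, the ERBB3 probe at position 5322 at least 1.0-fold. The BTC probe at 2069 and the ERBB2 probe then had no bound above 1. With scaling to spike-in probes, which report RNA added during labelling, the same probes in that order were at least 27.2-fold, 12.5-fold and 9.86-fold higher in the pellet and the ERBB2 probe at least 3.23-fold, and the BTC probe at 2069 had no bound above 1.

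The remaining ligands had signals under the floor of their array in both fractions. AREG, which binds EGFR and is a growth factor of mammary ducts in mice, had 3.46 in the pellet and 2.56 in the supernatant. EREG, a ligand of EGFR and ERBB4, had 2.92 in the pellet and 7.19 ± 2.41 in the supernatant. HBEGF, a heparin-binding ligand of the same receptors, had 2.28 in the pellet and 3.17 ± 1.88 in the supernatant. EGF had 2.39 in the pellet and 3.92 ± 1.96 in the supernatant. TGFA, an EGFR ligand, had 2.42 in the pellet and 1.95 in the supernatant. None of these 10 values was well above background. A further probe, named as EGF only in its description, had 2.52 in the pellet and 2.86 in the supernatant and was not detected either.

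The ligands EREG, HBEGF and EGF carried the weaker flag in the supernatant alone. Where that flag is not set the software lists a stand-in value in place of a measured signal, which held for all 45220 spots of each array, so their exosome values of 2.28 to 2.92 are stand-ins. That made 3 of 9 members with the weaker flag in the supernatant alone, against 5.2% of all named genes. The 99th percentile of the negative control spots on the supernatant array was 4.32. HBEGF and EGF, at 3.17 and 3.92, lay under it, and EREG, at 7.19, lay above it. With this flag 5 of 9 members counted in the pellet and 8 of 9 in the supernatant, against 81.7% and 64.9% of named genes. The probes of these 3 ligands are shown because they passed that flag on the supernatant array alone, with runs of 3 or more G again in capitals.
EREG at position 421, chr6:92399929-92399988, plus strand: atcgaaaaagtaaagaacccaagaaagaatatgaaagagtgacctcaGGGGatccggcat
HBEGF at position 844, chr7:50856505-50856564, minus strand: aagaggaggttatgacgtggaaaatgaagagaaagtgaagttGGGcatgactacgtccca
EGF at position 199, chr6:16827743-16833475, minus strand: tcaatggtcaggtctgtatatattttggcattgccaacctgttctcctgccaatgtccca

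The rest of the ERBB route was described from lists of genes around the members. The median of the 3593 genes measured on both arrays was 3.40 (log2, exosome minus supernatant, before scaling), and differences of the genes below are given relative to it. Such a difference uses only the probes detected on both arrays, and other probes of the gene can lie elsewhere. Where several probes of a gene were detected in 1 fraction alone, its fold is the geometric mean of their bounds, and single probes can lie under it or above it. Of the other EGF-family ligands, the neuregulins NRG1 to NRG4, 2 of 4 were detected in the pellet alone, 1 in the supernatant alone and 1 in neither, and no probe was matched to EPGN. Over all named genes these shares were 45.2%, 1.09% and 33%. NRG4, a ligand of ERBB4, had 1266 in the pellet and 2.26 in the supernatant, at least 145-fold brighter in the pellet before scaling and 3.06-fold after 75th percentile scaling. NRG1, a ligand of ERBB3 and ERBB4, was detected in the pellet by 1 of its 4 probes, at 15.0 against 1.87 in the supernatant. NRG2 was called in the supernatant alone by 1 of 2 probes, with 12.4 in the pellet and 11.7 in the supernatant, so the call differed while the signals hardly did. NRG3 had 2.28 in the pellet and 3.59 in the supernatant and was not detected.

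Of 7 genes for proteases that free the ligands and for their iRhom partners, 5 were detected in the pellet and 0 in the supernatant. These were 71.4% and 0%, against 65.9% and 21.8% of all named genes. ADAM10, which in mouse cells sheds BTC and EGF, was detected in the pellet by all 3 probes, at 59.9 to 102, against 1.91 to 5.50 in the supernatant. RHBDF2 and RHBDF1, which guide ADAM17 to the cell surface, were at least 7.55-fold and 6.81-fold brighter in the pellet before scaling. RHBDF1 was detected there by 1 of its 3 probes. ADAM9 and ADAM12 were detected in neither.

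Of 25 adaptors and signal carriers, 22 were detected in the pellet and 8 of those also in the supernatant, shares of 88% and 32%. All named genes stood at 65.9% and 21.8%. Among genes measured on both arrays, MAPK3, the kinase ERK1, was 2.45 above the median gene (log2) over 2 probes. The kinase ARAF, the kinase MAP2K1 and the adaptor NCK1 were detected in the pellet alone and were at least 122-fold, 96.2-fold and 68.6-fold brighter there before scaling, with MAP2K1 at 370 to 3217 in the pellet over 3 probes and 1.93 to 4.94 in the supernatant. BRAF, AKT2 and PLCG1 were detected in neither fraction.

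Of 16 genes listed here as feedback inhibitors of the route, a role that was not tested, 14 were detected in the pellet and 5 in the supernatant. These were 87.5% and 31.25%, against 65.9% and 21.8% of all named genes. RNF41, the ubiquitin ligase that marks ERBB3 for breakdown, had 216 in the pellet and 2.38 in the supernatant by 1 of its 2 probes, at least 24.7-fold brighter in the pellet before scaling. SPRY1 and SPRY2, inhibitors of the RAS-MAPK route, were at least 90.9-fold and 32.5-fold brighter there, each by 1 of its 2 probes. Measured on both arrays, the ERK phosphatase DUSP6 was 1.21 above the median gene (log2) and SOCS5 1.08 above it, while ERRFI1, which blocks the EGFR kinase, stood at -0.65. DUSP6 and ERRFI1 rested on 1 of 3 probes each, and their other probes were detected in the pellet alone. LRIG3 was the one gene of the list detected in the supernatant alone, by 1 of 4 probes, with 10.1 in the pellet and 29.1 in the supernatant, at least 2.58-fold brighter in the supernatant before scaling. SPRY4 was detected in neither.

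Of 13 transcriptional targets of the route, 11 were detected in the pellet and 3 in the supernatant. These were 84.6% and 23.1%, against 65.9% and 21.8% of all named genes. The transcription factors JUN and EGR1 and the cell cycle gene CCND1 were measured on both arrays and stood at 0.12, -0.90 and -0.15 relative to the median gene (log2). MCL1, IER2 and KLF10 were detected in the pellet alone and were at least 42.7-fold, 35.9-fold and 13.6-fold brighter there before scaling, and FOSL1 and ETV4 in neither. Probes of a gene differed widely here: MCL1 had 93.5 to 3414 in the pellet over 3 probes, against 2.09 to 2.36 in the supernatant. IER2 had 24.2 and 4079 in the pellet, against 7.21 and 2.83 in the supernatant. After 75th percentile scaling, of the genes named from these lists as detected in the pellet alone, NRG4, ARAF and MAP2K1 had a gene bound of 2-fold or more. SPRY1 and NCK1 had gene bounds of 1.92-fold and 1.45-fold, and the others had none above 1. These are geometric means over probes, and a single probe can keep a bound above 1 where the mean of its gene does not. Among the members, BTC had a mean of 0.64 and its probe at position 2973 a bound of 2.78-fold.

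**Figure D4:**
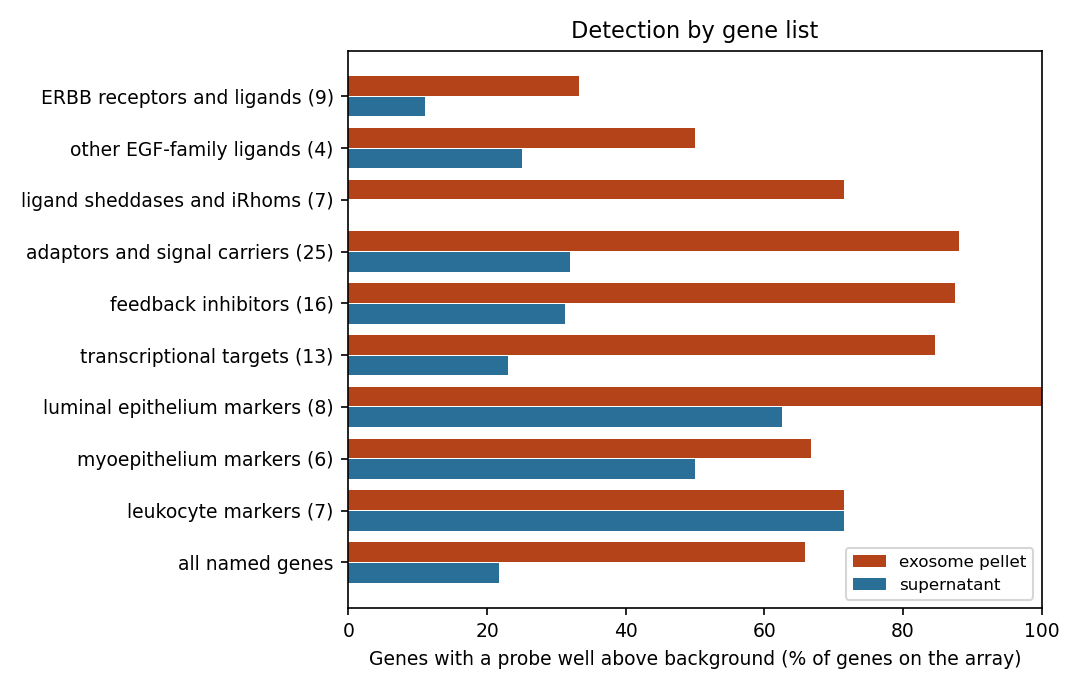
Share of genes with a probe well above background, in percent of the genes of each list on the arrays (number in brackets), with the pellet above the supernatant in each pair. The receptors and ligands stand at 33.3% and 11.1%, against 65.9% and 21.8% of all named genes, and the adaptors at 88% and 32%.

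Markers of the cells that could have given the RNA stood beside these results. All 8 luminal epithelium markers were detected in the pellet and 5 in the supernatant, with CSN2 and CSN3, caseins of milk, 7.28 and 7.82 above the median gene (log2) and ELF5, a transcription factor of milk-secreting cells, 7.63 above it. Of 6 myoepithelium markers 4 were detected in the pellet and 3 in the supernatant, and of 7 leukocyte markers 5 in each. Over all named genes the shares were 65.9% in the pellet and 21.8% in the supernatant. The part of these cell types in the ERBB signals was not tested, and fewer cells of a type cannot be told apart from less RNA per cell.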

How the data were processed

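RNA of the exosome pellet and of the supernatant was measured on 1 one-colour Agilent bovine array each, and scanned images were read by version 10.7.3.1 of Agilent Feature Extraction, per the file headers and the submitters' processing notes. The deposited intensity used here is the processed signal, which has background and spatial trend removed within the array and has no scaling between arrays, per the file headers. The flags and per-spot errors were used as deposited. The authors' deposited table holds log2 values that matched the log2 of these signals within 0.001 for all 43652 probes, and its medians were 4.81 (exosome) and 1.32 (supernatant). No further step is named in these sources.

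Control spots were dropped, as were 5 outlier spots of the exosome array and 2 of the supernatant array. Repeat spots of a probe were averaged as log2. No gene spot was saturated. Each array was scaled by its 75th percentile, a signal of 248 for exosome and 5.24 for supernatant. The supernatant percentile is smaller than any signal called well above background there, so unscaled differences and differences relative to the median gene are given too. Differences per gene average the probes detected on both arrays. A gene's bound is the geometric mean of the bounds of its probes detected on the brighter array.

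Names came from the probe's main accession (26739 probes), another of its accessions (1770) or a LOC number (1109) found in the gene table of assembly ARS-UCD2.0, and otherwise from the array file (6223). The other 7811 probes stayed unnamed. The table's coordinates were not used.

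No test was made and no p-value is printed, as each fraction has 1 array. The members and lists were chosen with earlier results of these data known. All members are named. From each other list the text names up to 3 genes with the largest differences measured on both arrays, up to 3 with the largest bounds among those detected in the exosome pellet alone, and those detected in the supernatant alone or in neither. A few genes that this rule names are not reported here. Alternatives were other scalings, normexp background correction with limma 3.58.1 and an offset of 50, other detection rules, other probe summaries, outlier spots kept, the file's symbols alone and the deposited log2 table. The stricter detection rule asked for 4 times the lowest detected signal. The calculation was tested on simulated data.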

Additional observations from a re-analysis of the deposited data

How the results depend on the processing

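The count of detected members depended on the detection rule. With the weaker flag 5 members were detected in the pellet and 8 in the supernatant, and with all probes of a gene required, 1 (BTC) and 0, against 3 and 1. The counts were 3 and 1 again with the stricter rule and with outlier spots kept, and 2 and 1 with the file's symbols alone. The other genes of the ERBB route were in lists of 4, 7, 25, 16 and 13 genes on the arrays. Of these, 54 were detected in the pellet and 17 in the supernatant, against 65.9% and 21.8% of all named genes. The supernatant count was 47 with the weaker flag, 6 with the stricter rule and 3 with all probes required, while the exosome count ran from 41 to 62. With the weaker flag, 81.7% of named genes counted in the pellet and 64.9% in the supernatant. The shares of all named genes under the stricter rule and with all probes required were not counted. The member and list counts under those rules therefore cannot be set against all genes.

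The ERBB3 difference (log2, exosome minus supernatant) was -7.67 after 75th percentile scaling and came from 1 of 3 probes. It was -2.11 without scaling, -4.38 with spike-in scaling, -5.60 with array median scaling and -3.73 with normexp background correction. The listed values gave -6.50 over the 2 probes with the weaker flag, -3.68 over all 3, and 1.97, with the direction turned, for the probe brightest on the exosome array, at position 5322. These 3 values are not measured differences: the probe at 3665 was not well above background on either array, and the supernatant value at 5322 is a stand-in, so that probe gives only the bound of at least 1.0-fold. The ERBB3 difference moved by less than the spot SD of 0.18 with quantile normalization and with the percentile taken over probes detected on both arrays. The stricter filter kept the same probe and the deposited table holds the same signals, so the value was the same there and neither is a check of it. Leaving out a replicate was not possible with 1 array per fraction. Signal over background leaves EGFR and the 5 ligands other than BTC with values under the floor.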

Other observations

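MYLK, the myosin light chain kinase of contractile cells and one of the myoepithelium markers, also had probes brighter in the supernatant. Its 2 probes, at positions 3901 and 3908, gave 42.8 and 42.6 in the pellet, against 128 and 117 in the supernatant, so both lay on the same side and nearly cover the same bases. The gene stood at -1.52 (log2, exosome minus supernatant, before scaling), or -4.92 relative to the median gene. ACTA2, smooth muscle actin, had 66.0 in the pellet and 33.8 in the supernatant, 2.43 below the median gene in its difference. The keratin gene KRT14 had 490 and 56.1 in the pellet and supernatant by 1 of 2 probes. It stood at -0.27 relative to the median gene, so near it. OXTR, the oxytocin receptor, was detected in the pellet alone, by 1 of 2 probes, and was at least 2.69-fold brighter there before scaling. KRT5 and TP63 were detected in neither.

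Of the leukocyte markers measured on both arrays, the macrophage genes CSF1R and CD68 had 131 and 170 in the pellet, against 15.6 and 34.5 in the supernatant, by 1 probe each. Relative to the median gene (log2) they stood at -0.33 and -1.09. CD14 and PTPRC, named here after their values were seen, were measured on both arrays too and stood at -2.32 and -2.15 relative to the median gene (log2). The CD14 value came from 1 of its 3 probes, with 60.6 in the pellet and 28.7 in the supernatant. Its other probes were detected in the pellet alone, at 141 and 760, against 2.24 and 5.99 in the supernatant. The pan-leukocyte gene PTPRC had 493 and 89.0 in the pellet, against 685 and 11.4 in the supernatant, so its detected probes differed in direction before scaling. The T cell gene CD3E and the myeloid integrin ITGAM were detected in neither.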
